A study of Homo sapiens with 14 samples.

Results

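The 6 genes described here, MDM4, XIAP, BPNT1, F11R, PSMB2 and PAICS, carry 3′UTRs that, per the study, are edited from adenosine to inosine. They were chosen by symbol from 21573 genes in a table of RPKM values (reads scaled to transcript length and to library size), and levels were read in every assay and condition. For F11R (uc009wtt.3), PSMB2 (uc001bzf.2) and PAICS (uc003hbt.1), 3 of the 4722 transcripts listed in all 8 tables of read starts, read starts (the positions where sequenced fragments begin) were also followed base by base. The study describes inverted Alu repeats by name in the 3′UTRs of F11R and PSMB2. Editing itself was not measured from these files.

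The cells carry the label HepG2, a human line derived from a liver tumour. Both groups were stably transfected, the controls with a scrambled siRNA and the knockdown (KD) cells with an siRNA against ADAR1, so the transfection is common to both, and all samples come from this 1 line. RNA structure was probed by PARS-seq in 2 control and 2 KD replicates with each of 2 nucleases, S1, which cuts unpaired bases, and V1, which cuts paired bases. Translation was followed by Ribo-seq in 2 control and 2 KD libraries, and RNA-seq was made as 1 library per condition.

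ADAR1 deaminates adenosine to inosine in double-stranded RNA. Most of its substrates in human cells lie in Alu elements, primate repeats that pair with a neighbouring copy in the opposite orientation and form long hairpins in 3′UTRs and introns. Inosine is read as guanosine, and an A-U pair changed to I-U is weaker, so editing can loosen a hairpin from within. The study proposes that editing can also turn A-C mismatches into more stable I-C pairs, and so often stabilizes imperfect duplexes.

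An inverted repeat was found in the 3′UTR of each of the 6 genes by aligning the sequence with its own reverse complement. The 3′UTRs came from GENCODE models on GRCh37, the assembly behind the authors' hg19. They lie at chr1:204518811-204527248 (+ strand) in MDM4, chrX:123041032-123047815 (+) in XIAP, chr1:220230826-220232185 (- strand) in BPNT1, chr1:160965001-160968660 (-) in F11R, chr1:36065142-36068867 (-) in PSMB2 and chr4:57325705-57327527 (+) in PAICS. They differ widely in size, from 1360 bases in BPNT1 to 8438 bases in MDM4, and take 49.7% of the transcript model in BPNT1 and 84.2% in PSMB2. MDM4 held 22 inverted pairs and XIAP 18, PSMB2 held 5 and F11R 2, while BPNT1 and PAICS held a single pair each. The arms of these pairs covered 44.3% of the 3′UTR in BPNT1, 32.4% in PSMB2, 32.1% in PAICS, 31.8% in MDM4, 28.2% in XIAP and 11.3% in F11R. The highest scoring pair was 317 bases long at 83.3% identity in XIAP and 144 bases long at 80.6% identity in F11R, the shortest of the 6. Each of the 12 arms of these best pairs matched an arm of all 5 other genes, at a median identity of 81.2%. Repeat annotation was not used here, so the arms are called by their position in these pairs and not by the name of a repeat. Only uniquely aligned reads were kept by the authors, and what this did to arms so alike was not tested.

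ADAR, the gene of ADAR1, checked the labels. Its PARS-seq RPKM fell from 40.7 and 46.8 to 15.1 and 15.1 (-1.47 on log2(RPKM + 1), adjusted p of 0.00200 by limma), and RNA-seq had 54.8 and 15.4. In Ribo-seq it went from 43.6 to 8.73 in replicate 1 but only from 55.5 to 44.03 in replicate 2, so values are given for each pair. Whether the knockdown itself was weaker in the second Ribo-seq pair was not tested. The liver genes that define the label were at or near 0. Of 9 hepatocyte markers 8 were in the table, among them ALB, AFP, APOA1 and SERPINA1, and none exceeded 0.0821 RPKM in any of the 10 columns. Of 9 markers of other cell types 6 stayed under 1 RPKM in every column, and COL1A1, a collagen chain, reached 54.7 RPKM. The summed level of those 9 was 21.0 to 31.6 RPKM in control and 18.1 to 21.9 in KD by PARS-seq, and 57.7 and 43.7 by RNA-seq. The part of this difference in the results below was not tested. The common transcripts held 88565995 to 197781370 read starts per PARS-seq library, and the most covered one, uc022brd.2, took 26.0% to 46.4% of them in control and 46.1% to 59.4% in KD. The table of S1 control replicate 1 lists only 4722 transcripts, against 21052 or more in each of the other 7.

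The 6 genes spanned a wide range of abundance. Among 11369 genes with a mean of at least 1 RPKM, PAICS stood above 91.5% of genes and XIAP above 29.7% in control PARS-seq. In control cells the order by PARS-seq RPKM was PAICS (83.3 and 76.6), BPNT1 (27.6 and 33.9), PSMB2 (24.0 and 26.2), F11R (18.2 and 16.3), MDM4 (9.67 and 11.5) and XIAP (4.45 and 4.40). No neighbours in this order overlapped in control. In KD, PSMB2 and F11R did overlap.

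RNA-seq ordered the genes differently. In the control library the levels were 38.4 RPKM for PSMB2, 37.6 for PAICS, 17.03 for F11R, 11.2 for BPNT1, 2.02 for XIAP and 1.15 for MDM4. MDM4 therefore stood 9.16-fold higher in PARS-seq than in RNA-seq, where the median gene had a ratio of 0.885 and the quartiles were 0.376 and 1.99. BPNT1 was at 2.74, XIAP at 2.20 and PAICS at 2.13, above the upper quartile. F11R, at 1.01, and PSMB2, at 0.654, lay between the quartiles. These ratios set values of separately made columns side by side and were not tested. The PARS-seq columns are the authors' means over S1 and V1 libraries.

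Ribo-seq levels varied widely between replicates. PSMB2 was at 71.3 and 21.4 RPKM in the control libraries and BPNT1 at 24.1 and 5.75. PAICS (73.1 and 36.3) overlapped PSMB2, PSMB2 overlapped BPNT1 and BPNT1 overlapped F11R (13.7 and 9.28), while XIAP (2.35 and 3.56) and MDM4 (0.498 and 2.24) lay below the others and did not overlap each other. The steps between low RPKM values gave the depth of each library relative to control RNA-seq. It was 2.44% for control and 3.45% for KD in Ribo-seq replicate 1, 8.16% and 5.90% in replicate 2, and 74.2% for the KD RNA-seq library. From the same steps the members' values came out as whole numbers of reads to within 2.0e-05 of a read. These are the smallest whole numbers that give the RPKM values, which any common multiple would give as well.

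**Figure D1:**
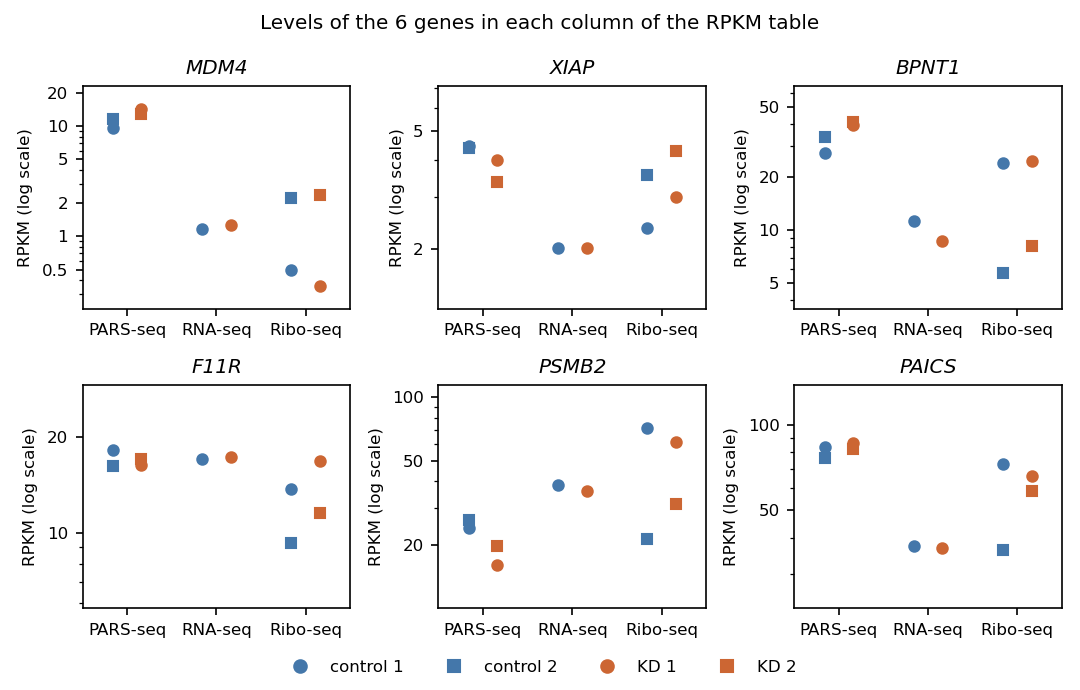
RPKM of each gene on a log axis in PARS-seq (authors' means over S1 and V1), RNA-seq and Ribo-seq, with control in blue, KD in orange, replicate 1 as circles and replicate 2 as squares. The PARS-seq points of PSMB2 are at 24.0 and 26.2 in control against 16.1 and 19.9 in KD, and the Ribo-seq replicates of BPNT1 and PSMB2 lie further apart than control and KD.

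The first comparison asks whether the levels of these genes differed between KD and control. PARS-seq RPKM come from RNA that was refolded and cut with nucleases in vitro. How far they depend on the cutting as well as on the amount of RNA was not tested. In PARS-seq no member was called by limma at an adjusted p under 0.05, against 15.5% of the 11152 genes tested. At an unadjusted p under 0.05 PSMB2 alone passed, as did 32.2% of genes. With the replicate number as a block in the fit, MDM4, BPNT1 and PSMB2 were called, as were 5656 of the 11152 genes. In 4 of the 6 genes the KD columns did not overlap the control columns, above them in MDM4 and BPNT1 and below them in PSMB2 and XIAP. Over all genes 33.3% lay wholly above and 27.2% wholly below, so this count was near the background. The study calls its replicates biological, but neither it nor the labels say that they were separate cultures, so p-values measure the spread between these samples only. In such bulk samples fewer cells of a type and less RNA per cell cannot be told apart.

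PSMB2, a beta subunit of the 20S proteasome core, had the largest difference. Its PARS-seq RPKM were 24.0 and 26.2 in control against 16.1 and 19.9 in KD. Both KD columns were the lower ones. The difference was -0.46 ± 0.17 (SE) on the log2(RPKM + 1) scale, with a 95% interval of -0.86 to -0.06 and an adjusted p of 0.108 by limma. In RNA-seq the same gene was at 38.4 and 36.0 RPKM, from 7576 and 5263 reads, a ratio of 0.937 with an exact 95% interval of 0.904 to 0.970 that covers counting error only.

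BPNT1, a nucleotidase that removes the by-product PAP of sulfation reactions, was on the other side in PARS-seq, at 27.6 and 33.9 RPKM in control against 39.8 and 41.2 in KD. The KD columns lay close together, above both controls. The difference was 0.39 ± 0.18 (SE), with an interval of -0.01 to 0.80 and an adjusted p of 0.164 by limma. In RNA-seq it was lower in KD, at 11.2 and 8.68 RPKM from 1125 and 645 reads, a ratio of 0.773 (0.701 to 0.852). The RNA-seq and PARS-seq values thus lay on opposite sides of 1, and the difference between the assays was not tested.

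MDM4 encodes a protein that binds p53 and holds its activity down. It was at 9.67 and 11.5 RPKM in control PARS-seq against 14.4 and 12.97 in KD, again without overlap. The difference was 0.35 ± 0.17 (SE), interval -0.03 to 0.73 and adjusted p of 0.188 by limma. RNA-seq gave 1.15 and 1.27 RPKM, from 474 and 387 reads, a ratio of 1.10 (0.960 to 1.26).

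XIAP encodes an inhibitor of caspases, the proteases of apoptosis. Its PARS-seq RPKM were 4.45 and 4.40 in control against 3.99 and 3.37 in KD, a difference of -0.22 ± 0.15 (SE) with an interval of -0.55 to 0.12. RNA-seq stood at 2.02 and 2.00 RPKM, a ratio of 0.993 (0.885 to 1.11).

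F11R, the junctional adhesion molecule A of tight junctions, overlapped between conditions. It was at 18.2 and 16.3 RPKM in control against 16.3 and 17.003 in KD, a difference of -0.04 with an interval of -0.41 to 0.32. PAICS, a bifunctional enzyme of de novo purine synthesis, was at 83.3 and 76.6 in control against 86.2 and 82.6 in KD, a difference of 0.08 with an interval of -0.32 to 0.47. Their RNA-seq ratios were 1.02 (0.967 to 1.07) for F11R and 0.984 (0.945 to 1.03) for PAICS. None of the 6 genes passed 1.5-fold on log2(RPKM + 1) in RNA-seq, where 9.13% of 10945 genes did, 4.47% upward and 4.66% downward.

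**Figure D2:**
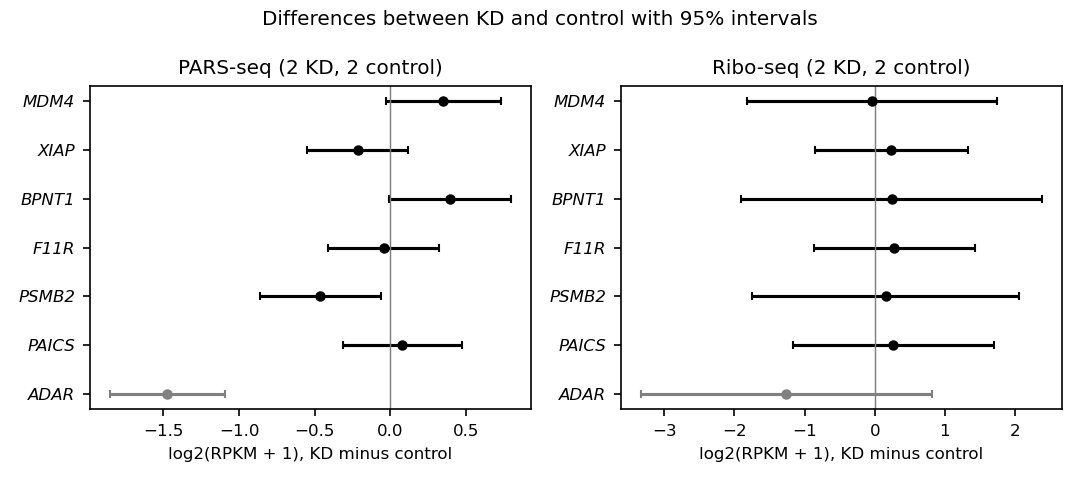
Difference between KD and control on log2(RPKM + 1), with 95% intervals from limma, in PARS-seq (left) and Ribo-seq (right), each from 2 KD and 2 control columns. In PARS-seq the interval of PSMB2 (-0.86 to -0.06) stops short of 0 and those of the other 5 members include it, and in Ribo-seq all intervals, ADAR included, include 0.

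The second comparison asks whether ribosome-protected reads of these genes changed. By limma none of 10881 genes was called in Ribo-seq (0%), and 43 genes (0.395%) had an unadjusted p under 0.05, none of them a member. The intervals of the members were wide, from -0.87 to 1.43 for F11R and from -1.91 to 2.38 for BPNT1. XIAP rested on 20 and 36 reads in replicate 1 (2.35 and 2.99955 RPKM) and on 101 and 88 in replicate 2 (3.56 and 4.28 RPKM). F11R was at 13.7 and 16.8 RPKM in replicate 1 and 9.28 and 11.5 in replicate 2, ratios of 1.22 and 1.24. BPNT1 was at 24.1 and 24.9, then 5.75 and 8.11. It rested on 59 and 86 reads, then on 47 and 48, and F11R on 66 and 114, then on 149 and 134. Counting error alone gave intervals of 0.733 to 1.46 and 0.924 to 2.16 for the ratios of BPNT1. For F11R they were 0.896 to 1.68 and 0.977 to 1.58. XIAP, F11R and BPNT1 were higher in KD within both pairs, as were 31.3% of all genes tested. No member had both KD columns above (10.7% of genes) or below (7.12%) both control columns. None passed 1.5-fold in both pairs, as 4.48% of genes did, or in pair 1 (20.7%), and PAICS alone did in pair 2 (28.1%).

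PSMB2 and PAICS had opposite directions in the 2 pairs. PSMB2 went from 71.3 to 61.3 RPKM in replicate 1, where ADAR went to 8.73, and from 21.4 to 31.3 in replicate 2, where ADAR went from 55.5 to 44.03. PAICS went from 73.1 to 66.4 and from 36.3 to 58.5. Counting error alone gave an interval of 0.743 to 0.994 for the ratio of PSMB2 in replicate 1 and of 1.26 to 1.70 in replicate 2. MDM4 had 5 reads in both libraries of replicate 1 (0.498 and 0.353 RPKM). The exact interval of that ratio ran from 0.163 to 3.08. Its 75 and 58 reads in replicate 2 gave 2.24 and 2.39 RPKM.

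Translation efficiency was taken as log2 of Ribo-seq over RNA-seq RPKM, for the 8936 genes at 1 RPKM or more in all 6 columns. MDM4 missed that limit through its Ribo-seq replicate 1 and the other 5 genes passed it. The KD minus control difference was 0.42 and 0.87 for BPNT1 in the 2 replicates, 0.36 and 0.28 for XIAP and 0.26 and 0.29 for F11R. It was -0.12 and 0.64 for PSMB2 and -0.12 and 0.71 for PAICS. The median gene was at 0.01 in replicate 1 and 0.24 in replicate 2. No member passed 1.5-fold in both replicates, as 3.63% of genes did upward and 2.95% downward. Both replicates were divided by the same RNA-seq libraries, so they are not independent. In control cells XIAP had more Ribo-seq signal per RNA than 64.9% and 91.5% of genes in replicates 1 and 2, and F11R more than 50.9% and 43.2%. Ribosomes occupy the coding sequence, which ranges from 13.7% of the PSMB2 model to 39.4% of the PAICS model, whereas RPKM was taken over whole transcripts.

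Genes that work with each member were followed in 6 lists, and counts are those called by limma in PARS-seq. Of 5 partners of MDM4 in p53 control none rose and 2 fell, against 8.06% and 7.43% of all genes, and the median of the 5 was -0.40 where that of all genes was 0.04. CDKN1A, the cell cycle inhibitor induced by p53, went from 424 and 447 RPKM to 53.4 and 59.6 and fell by 2.93 on the log2 scale (adjusted p of 0.000154 by limma). MDM2, the ubiquitin ligase that pairs with MDM4, fell from 36.4 and 37.1 to 16.2 and 12.9 RPKM in PARS-seq, by 1.28, although RNA-seq had 4.58 and 4.18. CDKN1A was lower in RNA-seq as well, at 171.6 RPKM in control against 55.6 in KD.

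Among 10 tested genes of caspases and their control, 1 rose and 2 fell, beside 8.06% and 7.43% of all genes, with a median of -0.20 beside 0.04. CYCS, cytochrome c, rose from 13.9 and 16.8 to 25.2 and 29.2, and CASP9, the initiator caspase that XIAP binds, fell from 41.5 and 30.5 to 16.4 and 15.3. BIRC3, a relative of XIAP, fell from 5.37 and 4.10 to 2.69 and 2.12. Of 6 tested sulfation and PAP genes 2 fell and none rose, beside 7.43% and 8.06% of all genes, with a median of -0.44 beside 0.04. SULT1A1, a sulfotransferase, went from 47.5 and 32.6 to 18.1 and 15.5, and PAPSS2, which makes the sulfate donor PAPS, from 21.6 and 21.8 to 13.3 and 12.8. Both also passed 1.5-fold downward in RNA-seq. BPNT1, which clears the by-product of these reactions, was at 0.39 in PARS-seq and did not pass.

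The partners of PSMB2 were the other beta subunits listed and the assembly factor POMP. Of these 7 none rose and 2 fell, beside 8.06% and 7.43% of all genes. The 2 were PSMB6 from 108 and 109 to 59.8 and 71.9 RPKM and PSMB1 from 127 and 123 to 70.1 and 82.1, and the median difference of the 7 was -0.45, beside -0.46 for PSMB2 and 0.04 for all genes. In RNA-seq their median was -0.42 and that of PSMB2 -0.09. Of 8 purine synthesis genes 1 rose, beside 8.06% of all genes. This was PFAS, from 8.55 and 12.4 to 18.3 and 20.5, and the median was 0.28, beside 0.08 for PAICS and 0.04 for all genes. Of 10 tight junction genes 6 were tested, with a median of 0.10. The one that rose was CGN, which encodes cingulin, from 0.546 and 0.759 to 4.95 and 5.52 RPKM. Its control columns lay under 1 RPKM, so that it passed the filter on the mean through the KD columns, and nothing is read from that count.

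The study had also chosen, on these same samples, 31 further genes whose 3′UTRs were edited at many sites and changed. They are no independent evidence of a direction. Of the 23 tested in PARS-seq 2 rose and 2 fell, close to the 8.06% and 7.43% of all genes, with a median of -0.08 beside 0.04 for all genes. LYRM2, a small mitochondrial protein gene, rose from 6.02 and 5.98 to 8.82 and 10.1, and POLR1E, a subunit of RNA polymerase I, from 16.01 and 13.6 to 21.5 and 24.8. TXNDC15 fell from 22.5 and 17.5 to 9.20 and 8.11, and MREG from 8.77 and 8.33 to 4.12 and 3.47. No gene of the 7 lists was called in Ribo-seq by limma.

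The third comparison followed read starts along the transcripts of F11R, PSMB2 and PAICS, first as totals. With S1, PSMB2 had 7913 and 7723 read starts in control against 4705 and 4425 in KD, and with V1 8628 and 9192 against 8205 and 7150. Scaled to 1000000 read starts on the common transcripts, these were 74.9 and 68.4 against 36.7 and 49.96 with S1, and 83.99 and 86.7 against 41.5 and 64.6 with V1. PSMB2 was lower in both KD libraries of each nuclease. F11R was at 68.5 and 56.9 against 47.4 and 54.6 with S1, and PAICS at 310 and 241 against 227 and 231. The difference of the median transcript was itself -0.36 with S1 and -0.34 with V1 on the log2 scale, beside the larger share of uc022brd.2 in the KD totals. With S1, PSMB2 was called lower (-0.74 ± 0.28 SE, adjusted p of 0.0448 by limma), a call made for 18.6% of 4721 transcripts (20.1% in either direction, and 33.6% at an unadjusted p under 0.05), and relative to the median transcript it was -0.38. With V1 its difference of -0.72 (adjusted p of 0.233) also came to -0.38 relative to the median, and 8.06% of 4716 transcripts were called with V1, 7.72% as lower and 0.339% as higher, while 20.1% had an unadjusted p under 0.05. Under TMM scaling the S1 difference was -0.38 with an adjusted p of 0.253, and the call was also lost without control replicate 1 (-0.67, adjusted p of 0.139), KD replicate 1 (-0.52, 0.564) or KD replicate 2 (-0.96, 0.172). F11R differed by -0.30 with S1 and -0.26 with V1 and PAICS by -0.26 and -0.08, but these signs turned under TMM scaling, as relative to the median F11R was at 0.06 and 0.08 and PAICS at 0.10 and 0.26.

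The read-start tables hold no sequence, so the 3 transcripts were placed on GENCODE models by the base composition at their read starts. For each one a single offset stood out in all 8 libraries to within 2 bases, with 4.61% of the variance of log2 read starts explained in F11R, 3.04% in PSMB2 and 8.24% in PAICS, against at most 1.40% at any other offset of the same model. The coding sequence then spans bases 270 to 1169 of uc009wtt.3, 412 to 1017 of uc001bzf.2 and 210 to 1508 of uc003hbt.1. The first of 3 equal parts of the transcript is 55.9% coding in F11R, 38.2% in PSMB2 and 81.3% in PAICS. The last part is 3′UTR in all 3 transcripts, apart from a few bases beyond the model's end. Inverted-repeat arms make up 47.4% of the middle part of PSMB2 and 22.6% of its last part, 8.39% and 17.4% in F11R, and 25.9% and 26.5% in PAICS.

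The transcripts were cut in very different places. In control S1 libraries the first part of PSMB2 held 89.2% and 85.1% of read starts, the middle part of F11R 52.5% and 55.5%, and the last part of PAICS 59.2% and 57.5%. V1 placed its cuts in the same parts, with 92.0% and 88.5% in the first part of PSMB2 and 43.4% and 46.6% in the last part of PAICS.

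In KD the first part of PSMB2 held a smaller share and the other parts a larger one with both nucleases. The first part went from 89.2% and 85.1% to 80.7% and 78.1% with S1, and from 92.0% and 88.5% to 82.4% and 82.8% with V1. The middle part went from 7.82% and 8.55% to 12.8% and 12.7% with S1, and from 5.73% and 6.44% to 11.1% and 9.20% with V1. The last part went from 2.98% and 6.37% to 6.55% and 9.20% with S1, and from 2.25% and 5.06% to 6.48% and 8.03% with V1. Control and KD did not overlap in any of these 6 cases, although the 3 shares of a library add up to 100% and so are not independent. Over all 13440 parts of 4480 transcripts, 2.79% lay wholly lower in KD and 3.24% wholly higher with both nucleases.

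As log2 odds of a part against the rest of its transcript, PSMB2 differed by -0.83 ± 0.31 (SE), 0.71 ± 0.20 and 0.88 ± 0.46 with S1 from the first to the last part, and by -0.99 ± 0.31, 0.80 ± 0.20 and 1.15 ± 0.46 with V1. Without control replicate 1 the last part was at 0.31 with S1 and 0.55 with V1, and with covered bases in place of read starts the 3 parts were at -0.19, 0.13 and 0.18 with S1 and at -0.46, 0.26 and 0.49 with V1. None of these passed limma's adjusted p, and no part of any transcript did (0% in each contrast). Under a replicate block some parts of PSMB2 did pass, and those values are given at the end with the counts over all parts. At an unadjusted p under 0.05 there were 568 parts (4.23%) with S1 and 162 (1.21%) with V1. Of PSMB2's values 5 of 6 were among them, with p from 0.00382 to 0.0220, and the last part with S1 had 0.0715. With V1, 0.751% of parts had a larger difference in size than the first part of PSMB2 and 0.484% a larger one than its last part. The change of V1 over S1 within a part was -0.16, 0.09 and 0.27 for the 3 parts, with intervals that all included 0 (-1.11 to 0.78 for the first).

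In F11R the middle part went from 52.5% and 55.5% to 47.4% and 49.0% with S1 and from 52.8% and 48.7% to 45.2% and 46.3% with V1, with no overlap in either. Its log2 odds were -0.34 ± 0.16 (SE) with S1 and -0.29 ± 0.16 with V1, and neither passed. In PAICS all 3 parts were without overlap with S1 and none with V1. The last part of PAICS went from 59.2% and 57.5% to 53.8% and 51.7% with S1, and stood at 43.4% and 46.6% and then 43.1% and 45.3% with V1. In all, 8 of the 9 parts of the 3 transcripts did not overlap between conditions with S1, where 25.6% of all parts did not, and 4 of 9 with V1, where 15.3% did not. With S1, 5 were higher in KD (12.2% of all parts) and 3 lower (13.5%), and with V1, 2 were higher (7.69%) and 2 lower (7.63%). The V1 against S1 contrast called none of the 9, and 79 of 13440 parts (0.588%), none in these transcripts, had an unadjusted p under 0.05 in it.

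**Figure D3:**
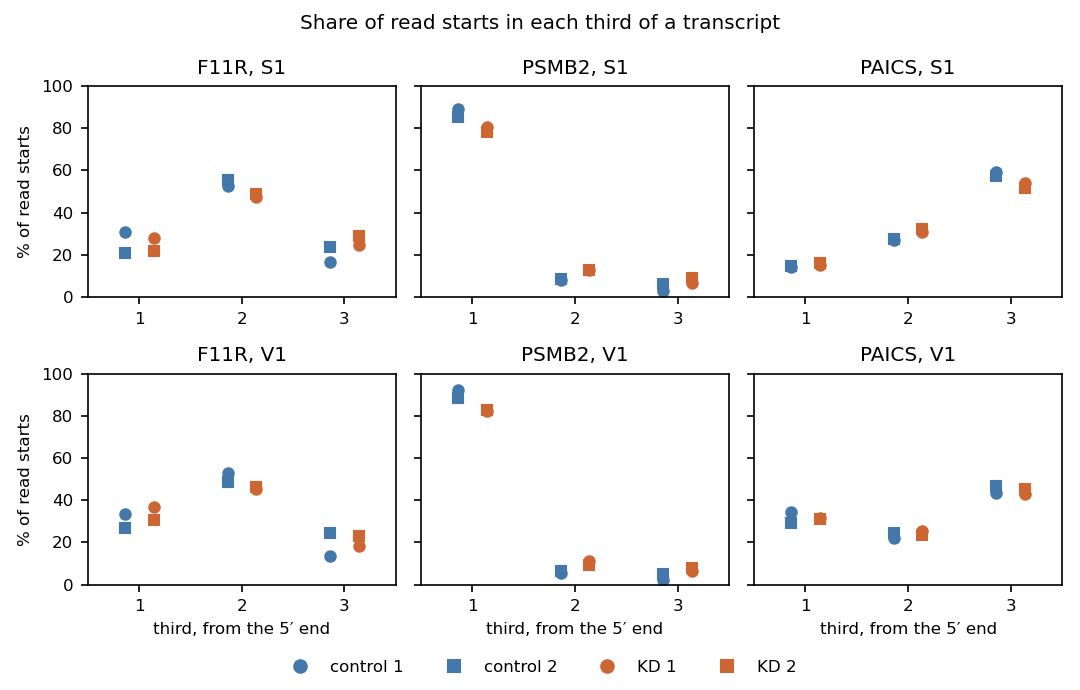
Share of a library's read starts on F11R, PSMB2 and PAICS in each of 3 equal parts, counted from the 5′ end, with S1 above and V1 below, control in blue and KD in orange. PSMB2 lies lower in KD in part 1, at 80.7% and 78.1% against 89.2% and 85.1% with S1, and higher in parts 2 and 3 with both nucleases, while the V1 points of PAICS overlap.

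Much of the S1 signal came from few bases. In PAICS a single base, 1469 bases after the stop codon and shortly past the second arm, held 22.5% and 20.7% of all S1 read starts in control against 17.4% and 15.2% in KD. The 10 most cut bases together held 42.2% to 46.3% of S1 read starts in PAICS and 12.9% to 13.3% of V1 read starts. In F11R the leading S1 base, 2034 bases after the stop codon, took 7.91% and 9.002% in control against 6.48% and 5.40% in KD. Of the 10 most cut S1 bases in each library, all 4 libraries shared 8 in PAICS, 7 in PSMB2 and 5 in F11R. Only 1 of these, in PAICS, lay in an inverted-repeat arm.

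**Figure D4:**
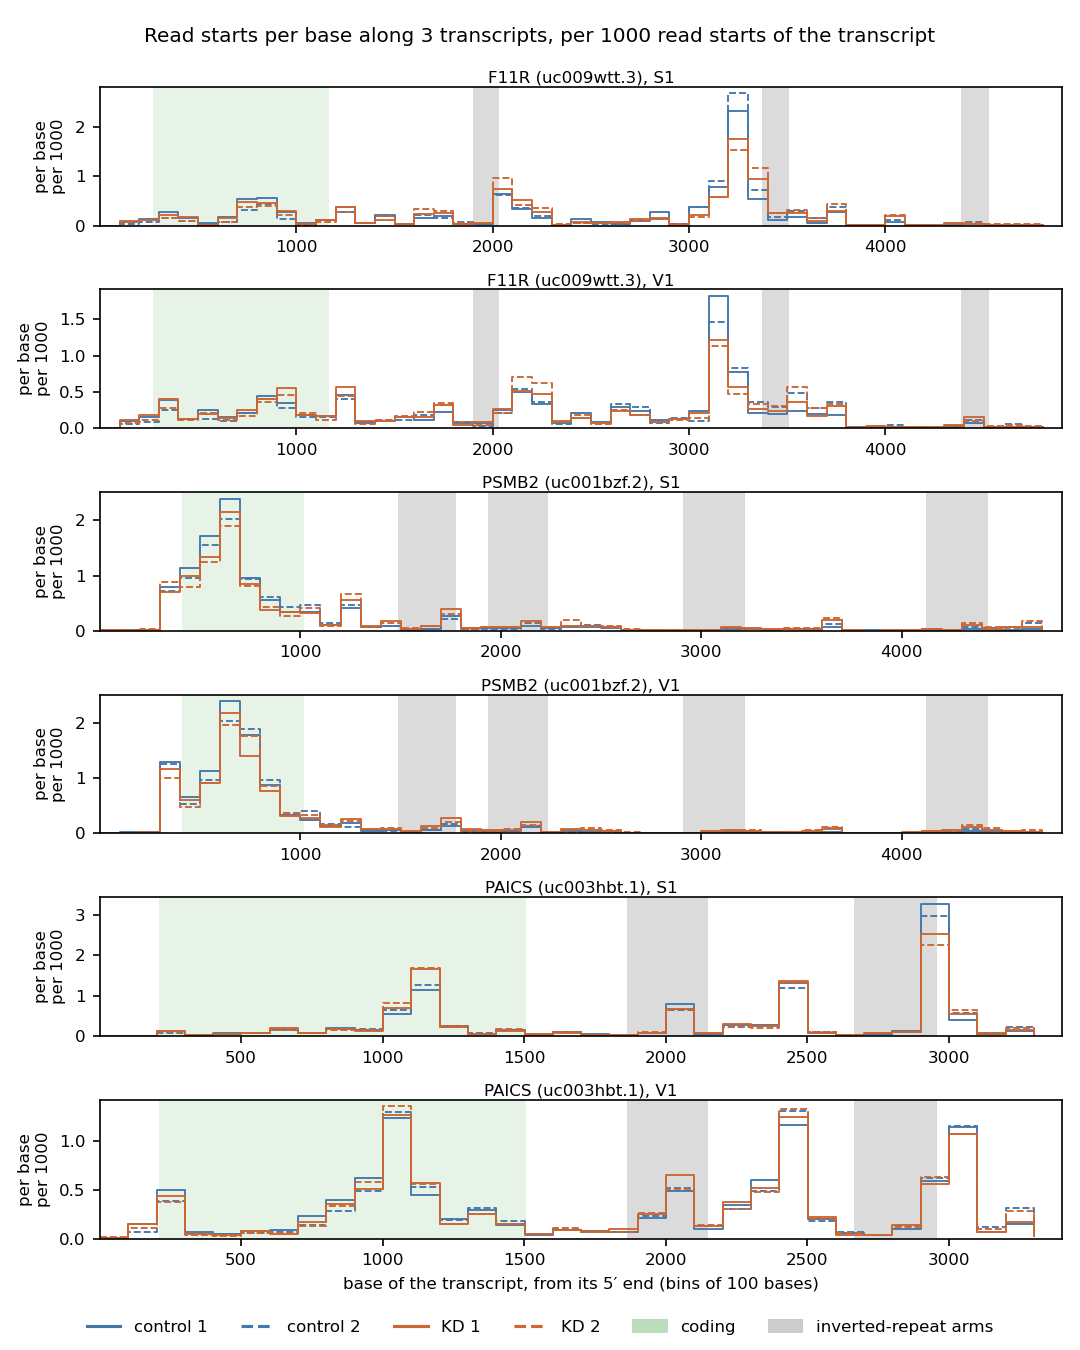
Read starts per base in bins of 100 bases along the 3 transcripts, per 1000 read starts of the transcript in that library, with control in blue, KD in orange, replicate 1 as solid and replicate 2 as dashed lines, the coding sequence shaded green and the arms grey. The S1 peak of F11R near base 3203 and that of PAICS near base 2977 are lower in both KD libraries.

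Profiles of the same nuclease were compared between replicates and between conditions. With S1, over the 4830 bases of F11R, Pearson's r was 0.965 between control S1 replicates, 0.958 between KD S1 replicates and 0.946 and 0.889 between control and KD of replicates 1 and 2. In PAICS the same values were 0.996, 0.995, 0.970 and 0.967, and in PSMB2 they lay between 0.932 and 0.964. With V1 the same values were 0.877, 0.823, 0.858 and 0.813 in F11R, while they lay between 0.912 and 0.945 in PSMB2 and between 0.952 and 0.964 in PAICS. By rank the likeness was lower, at 0.541 for the control S1 replicates of F11R and 0.692 for those of PAICS. S1 and V1 profiles of one library pair were less alike, with r of 0.0104 to 0.0238 in PAICS, 0.0929 to 0.104 in PSMB2 and 0.169 to 0.350 in F11R. By rank these were 0.292 to 0.304 in PAICS, 0.265 to 0.364 in PSMB2 and 0.144 to 0.174 in F11R. These values describe bases of one RNA, which are not independent.

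CorDiff, the score of the study, subtracts the squared correlations between control and KD from those between replicates, so that a value above 0 marks replicates that were more alike than conditions. The study showed F11R and PSMB2 as examples of 3′UTRs with changed structure in these same libraries, so their scores and read-start profiles are a description and no independent evidence of a change. For PAICS it showed a 3′UTR window that differed between edited and non-edited control reads. The study scored genes, exons or such windows, with a shuffling test. Here the score is taken over parts, without that test, so the values cannot be set against the study's. F11R was above 0 with both nucleases in its middle part (0.0937 with S1 and 0.0625 with V1) and its last part (0.134 and 0.0684), the 2 parts that are 3′UTR. Such values were found in 12.7% of all parts. No part of PSMB2 or PAICS was above 0 with both. PSMB2 had its lowest value in the last part with S1, at -0.191, and PAICS lay between -0.0298 and 0.0266. With Spearman's in place of Pearson's correlation the S1 values of F11R turned to -0.0402 and -0.0325, and parts 1 and 2 of PAICS were above 0 with both nucleases. Against KD of the opposite replicate number all parts of F11R, part 1 of PSMB2 and parts 1 and 3 of PAICS were above 0 with both.

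The inverted-repeat arms held fewer read starts per base than the rest of the 3′UTR in F11R and PAICS, and with S1 in PSMB2. Per base, the S1 density in the arms was 0.193 and 0.298 of that outside them in control F11R against 0.366 and 0.366 in KD. In PAICS it was 0.414 and 0.371 against 0.401 and 0.424, and in PSMB2 0.726 and 0.626 against 0.987 and 0.784. The V1 density was 0.470 and 0.589 of that outside in control F11R against 0.667 and 0.612 in KD. In PSMB2 the V1 density in the arms was 0.9747 and 1.19 of that outside in control, against 1.47 and 1.14 in KD. The part of reads that align to several repeats in these densities was not tested.

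V1 over S1, which is larger where more bases are paired, was higher in the arms than in the rest of the 3′UTR in all 12 pairs of S1 and V1 libraries of the same group and number over the 3 transcripts. On the log2 scale the arms exceeded the rest by 0.74 to 1.28 in F11R, by 0.43 to 0.93 in PSMB2 and by 0.40 to 0.76 in PAICS. In F11R the excess was 1.28 and 0.98 in control against 0.86 and 0.74 in KD, without overlap. In PSMB2 it was 0.43 and 0.93 against 0.57 and 0.55, and in PAICS 0.40 and 0.56 against 0.76 and 0.46, both overlapping. The differences between conditions were not tested. When each base was capped at the 99th percentile of the covered bases, the excess of PAICS ran from -0.10 to 0.16. When bases with any read start were counted instead, it was 0.50 to 0.58 in PAICS, 0.15 to 0.86 in PSMB2 and 0.05 to 0.23 in F11R, where the conditions then overlapped. Against the coding sequence the arms were higher in every pair of F11R only. In PSMB2 the coding sequence was at 0.13 and 0.31 in control and 0.83 and 0.91 in KD. Its arms were at -0.08 and 0.39, then 0.85 and 0.57. In PAICS the coding sequence was at -0.48 and -0.57, then -0.12 and -0.12, and the arms at -1.06 and -0.61, then 0.20 and 0.07. The library-wide log2 ratio of V1 over S1 was -0.04 and -0.09 in control against 0.63 and 0.32 in KD, and the ratio is therefore compared within a library pair only.

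**Figure D5:**
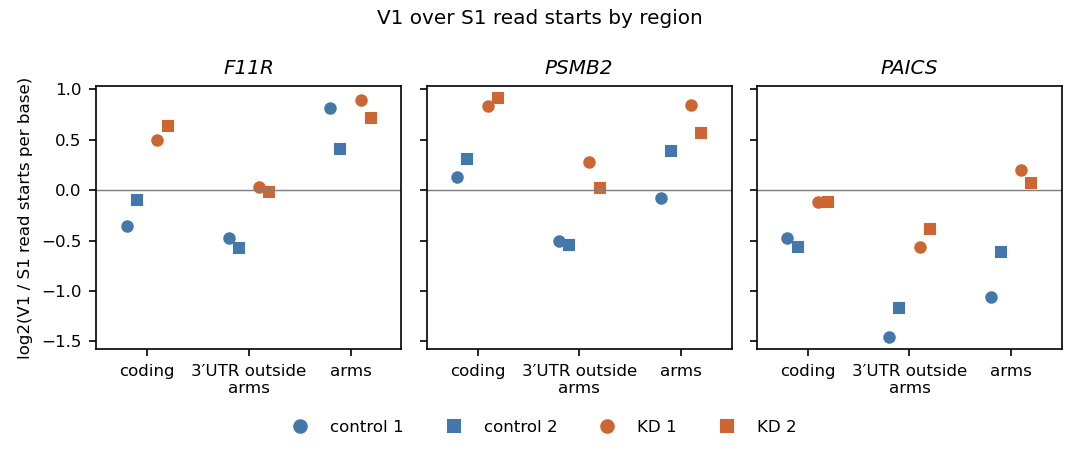
log2 of V1 over S1 read starts per base in the coding sequence, the 3′UTR outside the arms and the inverted-repeat arms of F11R, PSMB2 and PAICS, for each pair of libraries, with control in blue and KD in orange. The arms lie above the rest of the 3′UTR in every pair, by 1.28 and 0.98 in control F11R, and the KD points lie above the control points in every region except the arms of F11R, as the library totals do.

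Over the 10 columns of the RPKM table, BPNT1 and PAICS were the most alike of the members (r = 0.896), and MDM4 and PSMB2 the least (r = -0.853). These columns share assays and libraries, and the values are a description over 10 columns of log2(RPKM + 1). The genes most like MDM4 were LAMA1 (r = 0.993) and ASB14 (0.990), those most like XIAP PGAP1 (0.979) and MAN1A2 (0.962), and those most like BPNT1 FANCI (0.989) and TADA2A (0.986). F11R was most like CENPM (0.972) and UBE2MP1 (0.958), PSMB2 most like CTNNA1 (0.978) and CDC123 (0.977), and PAICS most like RFC1 (0.992) and MTERFD3 (0.988). A high r was common for some members and rare for others, with 694 genes above 0.9 for PAICS and 65 for F11R.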

How the data were processed

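Adapters were removed with cutadapt and reads aligned with Bowtie2, per the submitters' processing notes and the study's methods, in local mode with uniquely aligned reads kept. The deposited RPKM values were made by the authors from reads on hg19 counted per RefSeq transcript, and the PARS-seq columns are their means over S1 and V1. The deposited read-start tables hold other values, unscaled numbers of reads whose 5′ end, matched for at least 5 bases, lies at each base of a UCSC knownCanonical transcript. Versions are not given in the sources used here.

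RPKM were tested on log2(RPKM + 1) where the mean was 1 RPKM or more, with limma 3.58.1 (R 4.3.3, mean trend, Benjamini-Hochberg adjustment over all features). Read starts per transcript, at least 15 in total, were scaled to the library totals with 0.5 added. Transcripts of at least 300 bases with at least 100 read starts in every library were cut into 3 equal parts, and the log2 odds of each part fitted over 8 libraries. The fits were tested on simulated data with independent noise in each library. Same-numbered samples here deviated together, which the simulation did not hold, so it does not show how the fits behave on these data. RNA-seq, translation efficiency and CorDiff had no test. Inverted repeats came from blastn 2.17.0+ (word size 11, E value 1e-05). The placement of transcripts, the repeats and the reads behind RPKM values were added after the data were seen.

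The members and gene lists were chosen with earlier results of these data known. Named are the members, ADAR, at most 2 called genes per list and direction, and the 2 genes most like each member. Samples were grouped by title. Alternatives changed the pseudocount, filter, scaling, trend, replicate block, capped bases and replicates left out. The sequences of the arms are not reported here.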

Additional observations from a re-analysis of the deposited data

How the results depend on the processing

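Of 524 values of the members under an alternative, 459 kept their direction and side of the threshold, 45 reversed, 9 newly passed, 5 no longer passed and 6 values without a test moved by more than their spread. Counts over all features stayed within 1.5 times in 50 of 83 cases. The PARS-seq count of 1728 genes became 546 with no filter and 1118 at a mean of at least 5 RPKM, and ran from 1159 to 2571 with a replicate left out. The Ribo-seq count stayed at 0 with any replicate left out. Leaving out a library gave 239 to 1833 transcripts with S1 (948 in all libraries; fewest without KD replicate 2, most without control replicate 2), 78 to 778 with V1 (380; fewest without control replicate 1, most without KD replicate 2), 3 to 7 parts with S1, 0 to 5 with V1 and 0 to 6 in the V1 against S1 contrast, each 0 in all libraries. Counting covered bases called 6 parts with S1 and 3 with V1. Translation efficiency past 1.5-fold held for 588 genes in both replicates, and for 1728 to 3604 with 1 replicate. CorDiff above 0 with both nucleases held for 1712 parts, 3087 with Spearman's correlation and 4994 when control was set against KD of the opposite number. The causes were not tested, beyond fewer samples or genes entering a fit. Depth relative to control RNA-seq was lowest in Ribo-seq replicate 1, at 2.44% and 3.45%, where MDM4 rested on 5 reads a library and XIAP on 20 and 36. BPNT1 had fewer reads in replicate 2, at 47 and 48 against 59 and 86.

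With V1, PSMB2 was called without KD replicate 2 (-1.04, adjusted p of 0.0257 by limma), while without KD replicate 1 it was at -0.40 (adjusted p of 0.637). Per transcript, F11R turned to 0.065 (TMM scaling) and 0.058 (total without uc022brd.2) with S1 and to 0.081 and 0.051 with V1, and PAICS to 0.11 and 0.10 and to 0.26 and 0.23. With covered bases, S1 turned to 0.071 in part 2 of F11R and to -0.00025, -0.078 and 0.074 in parts 1 to 3 of PAICS, and V1 against S1 to -0.13 in part 2 of F11R and to 0.18 and -0.11 in parts 2 and 3 of PAICS. With capped bases, part 2 of PAICS turned to -0.0026 with S1 and, for V1 against S1, to 0.034, and part 2 of F11R to -0.062.

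With a replicate left out, PARS-seq ran from -0.12 to 0.033 in F11R, 0.23 to 0.46 in MDM4, -0.31 to -0.12 in XIAP (both ends from KD replicates), 0.25 to 0.53 in BPNT1 (both ends from control replicates), -0.61 to -0.32 in PSMB2 and 0.018 to 0.14 in PAICS, without a call. Ribo-seq ran from -0.70 to 0.62 in MDM4, 0.012 to 0.46 in XIAP, -0.71 to 1.19 in BPNT1, 0.021 to 0.54 in F11R, -0.69 to 1.00 in PSMB2 and -0.23 to 0.76 in PAICS. Per transcript, F11R ran from -0.43 to -0.16 with S1 and from -0.49 to -0.033 with V1, and PAICS from -0.44 to -0.076 and from -0.28 to 0.11. By part, PSMB2 kept its signs within S1 and within V1, and its part 3 ran from 0.31 to 1.45 with S1 and from 0.55 to 1.76 with V1. S1 ran from -0.44 to 0.34 in part 1 of F11R. V1 ran from -0.0023 to 0.44 and from -0.30 to 0.71 in parts 1 and 3 of F11R, and from -0.20 to 0.15 and from -0.14 to 0.049 in parts 1 and 3 of PAICS. V1 against S1 ran from -0.12 to 0.66, -0.073 to 0.16 and -0.86 to 0.15 in F11R, and from -0.45 to 0.13, -0.062 to 0.24 and -0.34 to 0.87 in PSMB2.

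The replicate numbers of the groups are not said to mark a shared culture or day, and there are only 2 pairs. Deviations of same-numbered samples nonetheless correlated at 0.467 to 0.811, and the main fits did not account for this. What these samples share was not tested. With a replicate block 5656 of 11152 genes were called in PARS-seq and 143 of 10881 in Ribo-seq. Per transcript, 1044 of 4721 were called with S1 and 100 of 4716 with V1. By part, 768 of 13440 were called with S1 and 86 of 13440 with V1. These counts are the background of the values of the members below. Under that block limma's adjusted p was 0.00662 for MDM4, 0.00704 for BPNT1 and 0.000605 for PSMB2 in PARS-seq. For parts 1 to 3 of PSMB2 it was 0.0135, 0.0358 and 0.0396 with S1, and for parts 1 and 3 it was 0.0135 and 0.0373 with V1.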
